A study of Homo sapiens with 6 samples.

Results

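A set of 10 genes linked to the early transcriptional answer of a T cell to stimulation was followed in Jurkat cells with lowered SATB1. They were EGR1, EGR2, EGR3 and EGR4, NR4A1, NR4A2 and NR4A3, the corepressor genes NAB1 and NAB2, and SRF. These 10 of 58735 genes in the count files were picked out by their symbols in GENCODE 29. Jurkat is an established human T cell leukaemia line, and it was the only cell type measured. Cells of the control group carried a lentiviral control hairpin (shCtrl), and cells of the other group a lentiviral hairpin against SATB1 (shSATB1), with a single hairpin per group and no stimulus named in the labels. Total RNA of each group was sequenced as 3 libraries, and no label says that they are separate cultures. The p-values therefore cover only the spread among these libraries, which may be technical.

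EGR proteins are zinc finger transcription factors that bind GC-rich DNA, and NR4A proteins are orphan nuclear receptors that need no known ligand. In T cells both families are induced within minutes to hours of antigen receptor signalling. ERK kinases phosphorylate ternary complex factors such as ELK1, which sit with the serum response factor SRF on CArG boxes, and calcium acts through calcineurin, NFAT and MEF2 factors. NAB1 and NAB2 bind EGR proteins and repress their target genes. EGR2 and EGR3 are known for restraining activated T cells, NR4A factors for their part in T cell exhaustion and in the death of self-reactive thymocytes, and NR4A1 as a reporter of receptor signalling.

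The promoters are shown first because SRF and EGR proteins are known to act on promoters of this gene set. RefSeq promoter windows (build GRCh38.p14, 250 bases before to 50 after a start site) were read for 8 of the 10 genes, in 14 windows. These motifs, searched on both strands, carry the description: the CArG box, by name, as the SRF site, TGACG as the core of the cAMP response element (CRE), GCGNGGGCG as the EGR site, and AAAGGTCA as the NR4A site. Capitals in the sequences mark matches to the first 3 of these, and each line reads 5′ to 3′ up to the base given. The sequences are shown because EGR1 and SRF each hold a pair of CArG boxes next to the start, EGR2 holds a single CArG box between CRE cores, and NR4A3 holds a cluster of CRE cores. They lie at chr5:138465299-138465478 (plus strand) for EGR1, chr10:62816367-62816546 (minus strand) for EGR2, chr6:43171089-43171268 (plus strand) for SRF and chr9:99821705-99821854 (plus strand) for NR4A3.
EGR1: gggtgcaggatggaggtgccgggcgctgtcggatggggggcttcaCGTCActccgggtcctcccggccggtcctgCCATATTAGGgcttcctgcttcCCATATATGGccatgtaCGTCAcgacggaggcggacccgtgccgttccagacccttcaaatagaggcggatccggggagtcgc
EGR2: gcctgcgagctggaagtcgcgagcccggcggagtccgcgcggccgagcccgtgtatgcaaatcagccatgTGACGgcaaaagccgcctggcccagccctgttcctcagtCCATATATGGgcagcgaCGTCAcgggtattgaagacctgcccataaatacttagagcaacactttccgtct
SRF: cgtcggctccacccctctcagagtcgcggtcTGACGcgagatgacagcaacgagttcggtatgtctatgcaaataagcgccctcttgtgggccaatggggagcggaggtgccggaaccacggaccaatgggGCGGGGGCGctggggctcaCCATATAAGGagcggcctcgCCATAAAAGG
NR4A3: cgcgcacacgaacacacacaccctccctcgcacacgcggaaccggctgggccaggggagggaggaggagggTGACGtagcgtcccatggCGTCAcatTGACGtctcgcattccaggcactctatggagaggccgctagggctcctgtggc

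In the EGR1 promoter the CArG boxes began at positions -105 and -83 from the start, CRE cores at -135 and -66, and an EGR site at -198. In the third EGR2 window the CArG box began at -71, and the second EGR2 window held an EGR site at 9. In SRF the boxes began at -30 and -10, and an EGR site at -49. A CArG box was present in 1.29% of all 35116 promoter windows of this length, and 2 or more in 0.0313%. The NAB2 window held an EGR site at -62, and the first NAB1 window held EGR sites at -42, -36 and 14, the first pair overlapping. An EGR site was present in 9.43% of all windows. EGR4 held 2 CRE cores, a motif found in 24.6% of windows, and neither NR4A1 window held a CArG box, a CRE core or an EGR site. None of the windows read, which leave out EGR3 and NR4A2, held the NR4A site, which 1.22% of all windows hold. A match is a description of letters, not a bound site.

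**Figure D1:**
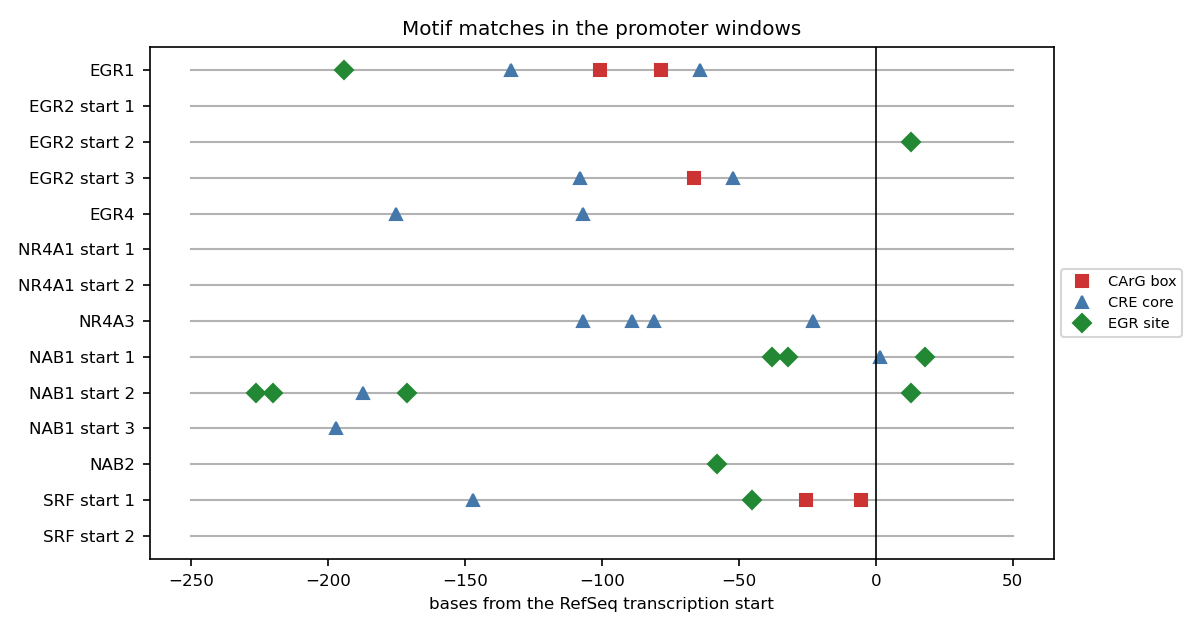
Positions of CArG boxes, CRE cores and EGR sites in the promoter windows of 8 genes, on an axis of bases from the RefSeq start (grey line: the 300-base window; starts numbered where a gene has several windows). CArG boxes appear in EGR1, in the third EGR2 window and in the first SRF window.

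SATB1, the targeted gene, had 279.1, 258.5 and 259.3 CPM in shCtrl, against 101.8, 100.2 and 104.1 CPM after knockdown, where CPM are counts per 1e6 reads of TMM-scaled library size. The ratio by the fit was 0.384 (edgeR adjusted p = 1.11e-08). Libraries held between 26626539 and 28913623 reads in genes. All 9 T cell markers listed were above 1 CPM in every library, although 4 of them fell (CD3D, CD247, TRBC1 and CD2, log2 fold changes of -0.39 to -0.24) and TRAC rose (0.47). Of 13 markers of other cell types, 9 or 10 were under 1 CPM in each library, and their summed level, 247.8 to 257.0 CPM in shCtrl and 164.6 to 171.5 CPM in shSATB1, came mostly from PECAM1 and CD79A, with EPCAM and HBA1 at 0 in every library; the part of these markers in the results was not tested. Reads outside annotated exons made up 9.10% ± 1.23 (SD, n = 3) of the shCtrl libraries and 11.4% ± 0.436 of the shSATB1 libraries, with every shSATB1 library higher.

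Of the 10 genes, 4 rose in shSATB1: EGR1, EGR2, EGR3 and NR4A1. None fell. Of the other members, NR4A3, NAB1, NAB2 and SRF did not pass the test, and EGR4 and NR4A2 had too few reads to be tested. A gene counted as risen or fallen at an adjusted p under 0.05 over all 17520 genes tested, and 14.3% of those rose and 16.6% fell. The 8 tested members thus gave 4 rises and 0 falls, with a median log2 fold change of 0.40 against 0.01 over all tested genes. This is a description only, since the members were chosen with earlier results of these data known. The 4 risen genes, NR4A3 and NAB1, 6 members in all, had every shSATB1 library above every shCtrl library, which was so for 21.7% of all tested genes. The share of rises also went with the level: it was 6.99% of tested genes with a mean under 2 CPM, where EGR2, EGR3 and NR4A3 lie, 15.3% between 2 and 20 CPM, where EGR1, NR4A1 and NAB2 lie, and 17.8% above 20 CPM. In bulk RNA, more cells with a transcript and more transcript per cell cannot be told apart.

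**Figure D2:**
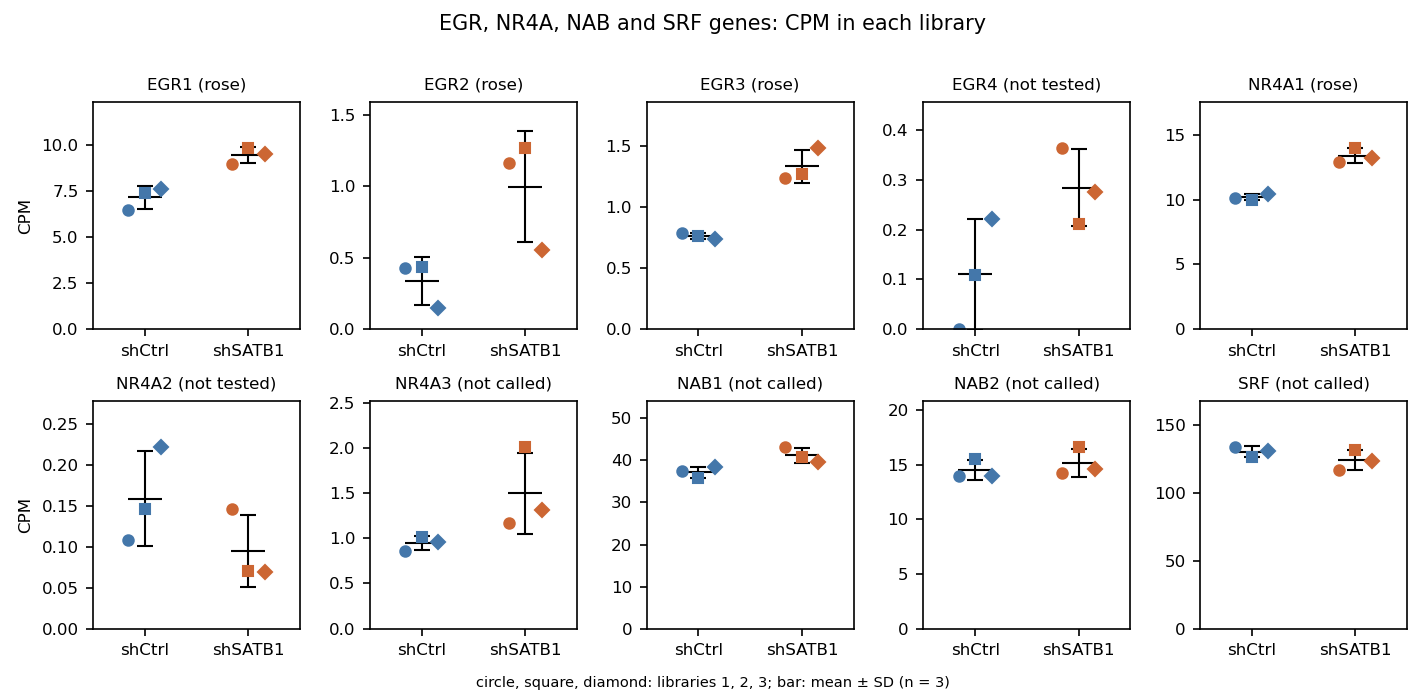
CPM of each of the 10 genes in each library, with the mean ± SD (n = 3) of each group; each panel has its own axis from 0. The shSATB1 libraries lie above all shCtrl libraries for EGR1, EGR2, EGR3, NR4A1, NR4A3 and NAB1.

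EGR1 (ENSG00000120738, hg38 chromosome 5, 138465490 to 138469315, plus strand) encodes the most widely studied factor of the family. Its shCtrl libraries had 6.46, 7.38 and 7.61 CPM, and its shSATB1 libraries 8.96, 9.84 and 9.52 CPM, with 180 to 279 reads behind each value. The lowest shSATB1 library was above the highest shCtrl library. The group means were 7.15 ± 0.609 and 9.44 ± 0.449 CPM (SD, n = 3), a fitted rise of 1.32-fold with a 95% interval of 1.12 to 1.56 (edgeR adjusted p = 0.0136). The call was lost without shSATB1 replicate 2 (adjusted p = 0.0512), while the log2 fold change kept between 0.33 and 0.44 over the 6 fits that each leave out a library.

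EGR2 (ENSG00000122877, chromosome 10, 62811996 to 62919900, minus strand) is needed for myelination and, in T cells, for tolerance. Its reads were few, 12, 12 and 4 in shCtrl and 32, 36 and 16 in shSATB1. These are 0.431, 0.436 and 0.148 CPM against 1.17, 1.27 and 0.552 CPM, so replicate 3 was lowest in both groups and the groups did not overlap. The fitted rise was 2.90-fold with an interval of 1.52 to 5.53 (edgeR adjusted p = 0.0157). It was 1.184 on the log2 scale without shCtrl replicate 3, 1.418 with shSATB1 replicate 1 left out and 1.329 with shSATB1 replicate 2 left out, and passed in none of these 3 fits (adjusted p = 0.0762, 0.0672 and 0.0855). EGR2 reached the count filter of 0.358 CPM in all shSATB1 libraries but in only 2 shCtrl libraries, so its place among the tested genes depended in part on its level in shSATB1.

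EGR3 (ENSG00000179388, chromosome 8, 22687659 to 22693302, minus strand) acts alongside EGR2 in lymphocytes. Its levels of 0.789, 0.764 and 0.739 CPM in shCtrl lay close together, and those of shSATB1 were 1.24, 1.27 and 1.48 CPM. All 3 shSATB1 libraries were higher, from 34 to 43 reads against 20 to 22. The fitted rise was 1.74-fold, with an interval of 1.19 to 2.55 (edgeR adjusted p = 0.0298). This call was the least firm of the 4. It was lost by DESeq2 (adjusted p = 0.0705) and in 5 of the 6 fits that leave out a library, with adjusted p = 0.0511 without shCtrl replicate 2, 0.0891 without shCtrl replicate 3, and 0.0632, 0.0566 and 0.112 without shSATB1 replicates 1, 2 and 3. Of its exons, 3.38% overlap the antisense gene AC055854.1, and the strand setting of the counting is not given in the sources used here.

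EGR4 (ENSG00000135625, chromosome 2, 73290929 to 73293705, minus strand) is a further member of the EGR family. It had 0, 3 and 6 reads in shCtrl and 10, 6 and 8 in shSATB1, a sum of 9 against 24. At these depths 3 reads correspond to 0.103 to 0.111 CPM, and the groups touched at 6 reads. Tested without a filter on low counts, EGR4 had a log2 difference of 1.33 ± 0.716 (SE; edgeR adjusted p = 0.249), so a difference was not detectable at this depth.

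NR4A1 (ENSG00000123358, chromosome 12, 52022832 to 52059507, plus strand), also known as NUR77, was the most evenly measured of the risen genes. Control libraries had 10.2, 9.96 and 10.5 CPM, and shSATB1 libraries 12.9, 14.0 and 13.2 CPM, on 274 to 397 reads each. The gap between the groups was wider than the range within either of them. The fitted rise was 1.31-fold with an interval of 1.15 to 1.51 (edgeR adjusted p = 0.00516), and it passed with each library left out (adjusted p between 0.00483 and 0.0240). Of its exonic bases, 10.3% overlap the antisense gene AC025259.3.

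NR4A3 (ENSG00000119508, chromosome 9, 99821855 to 99866891, plus strand), also known as NOR1, had 0.861, 1.02 and 0.960 CPM in shCtrl and 1.17, 2.01 and 1.31 CPM in shSATB1. The shSATB1 libraries were higher without overlap, but replicate 2 stood well above the other two. The fitted ratio was 1.58 with an interval of 1.05 to 2.37 (edgeR adjusted p = 0.0841), and the log2 fold change went from 0.66 to 0.39 without shSATB1 replicate 2. NR4A2 (ENSG00000153234, chromosome 2, 156324432 to 156342348, minus strand), also known as NURR1, had 3, 4 and 6 reads in shCtrl and 4, 2 and 2 in shSATB1. All its libraries were near the floor of 3 reads, and no change in either direction was detectable at this depth.

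The corepressors were more abundant and moved less. NAB1 (ENSG00000138386, chromosome 2, 190646746 to 190692766, plus strand) had 37.4, 35.8 and 38.3 CPM in the shCtrl libraries, against 43.2, 40.8 and 39.5 CPM with shSATB1. These did not overlap, yet the fitted ratio of 1.11, with an interval of 1.00 to 1.23, did not pass (edgeR adjusted p = 0.122). NAB2 (ENSG00000166886, chromosome 12, 57088894 to 57095476, plus strand) had 14.0, 15.5 and 13.9 CPM in the shCtrl libraries, against 14.2, 16.6 and 14.6 CPM with shSATB1. The groups overlapped, and the interval of the ratio was 0.909 to 1.21 (edgeR adjusted p = 0.638). NAB2 itself is a known EGR target, and 69 of its exonic bases overlap STAT6 on the opposite strand.

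SRF (ENSG00000112658, chromosome 6, 43171299 to 43181507, plus strand) had the most reads, 3210 to 3742 per library. Its levels were 134.0, 126.2 and 130.9 CPM in shCtrl, against 116.9, 132.0 and 123.9 CPM with shSATB1. The groups overlapped, and the ratio of 0.953 had an interval of 0.867 to 1.05 (edgeR adjusted p = 0.449). Like the EGR1 promoter, the SRF promoter printed above holds a pair of CArG boxes, and only EGR1 of these genes passed the test; the difference between them was not tested.

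Per kilobase of exons, the 10 genes spanned a wide range of levels. In shCtrl SRF was at 31.0 ± 0.936 CPM per kb (SD, n = 3), NAB1 at 7.61 ± 0.263, NAB2 at 4.81 ± 0.305, EGR1 at 2.28 ± 0.194 and NR4A1 at 1.40 ± 0.0336. The libraries of each of these genes were separate from those of the next gene in the order. EGR3 at 0.157 ± 0.00523 and NR4A3 at 0.150 ± 0.0126 CPM per kb overlapped. So did EGR2 at 0.0917 ± 0.0447 and EGR4 at 0.0464 ± 0.0466, and EGR4 and NR4A2 at 0.0399 ± 0.0146. In shSATB1 the first 5 places were the same, with EGR1 at 3.01 ± 0.143 and NR4A1 at 1.84 ± 0.0763 CPM per kb, and EGR3, EGR2 and NR4A3 overlapped at 0.274 ± 0.0274, 0.270 ± 0.105 and 0.237 ± 0.0716. These lengths join the exons of all annotated transcripts, which lowers the value of a gene with many alternative exons such as NR4A1.

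**Figure D3:**
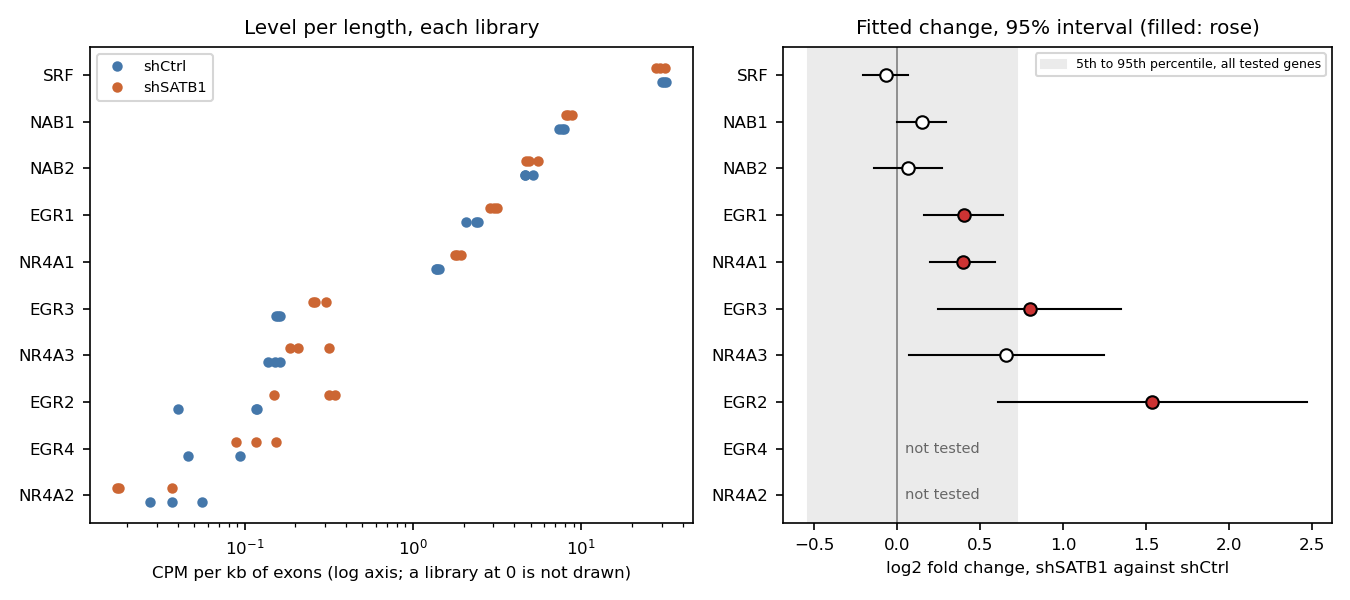
Left, level per kilobase of exons in each library on a log axis. Right, the fitted log2 fold change of shSATB1 against shCtrl with its 95% interval (filled: rose at an adjusted p under 0.05). A grey band runs from the 5th to the 95th percentile of all tested genes. EGR2 and EGR3 lie beyond that band, which ends at 0.72. The band pools genes of every level, while EGR2 and EGR3 lie under 2 CPM, and genes of that level were not drawn apart.

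The 4 rises also depended on how the share of reads outside annotated exons was treated. With this share as a covariate none of the 4 passed, at log2 fold changes of 0.57 for EGR1, 2.05 for EGR2, 0.73 for EGR3 and 0.40 for NR4A1 (edgeR adjusted p = 0.0529, 0.0710, 0.438 and 0.123), while the standard errors grew to between 0.171 and 0.765. The share and the group cannot be told apart fully in this design. With offsets that remove trends with gene length and GC content, all 4 passed.

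**Figure D4:**
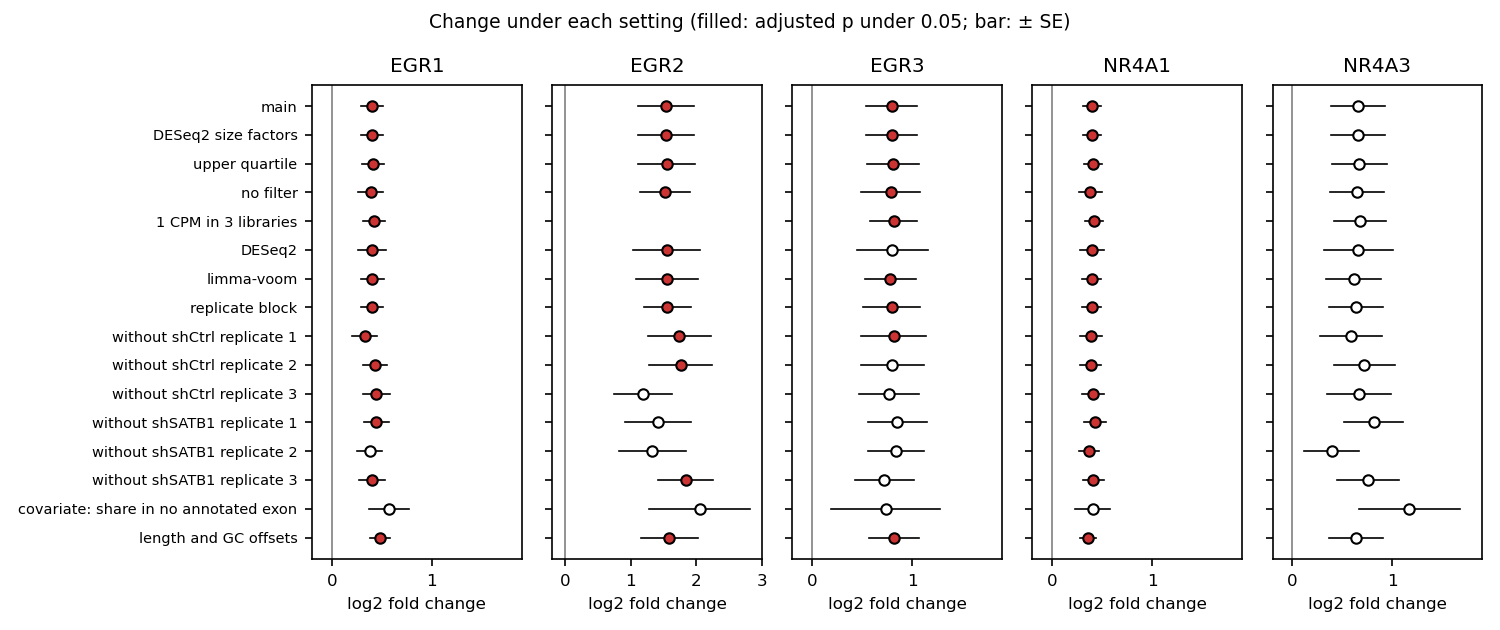
Log2 fold change of EGR1, EGR2, EGR3, NR4A1 and NR4A3 with its standard error under the main fit and each other setting (filled: adjusted p under 0.05; EGR2 is not tested at a minimum of 1 CPM in 3 libraries). Every value is above 0, and only NR4A1 passes with every library left out.

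Genes upstream of the EGR and NR4A families were taken by route. Over all tested genes 14.3% rose and 16.6% fell, and above 20 CPM 17.8% and 27.7%. The lists, here and downstream, are short and were chosen with earlier results of these data known. No list count was tested against these shares. Of 5 SRF cofactors and ternary complex factors, 2 rose and none fell, with a median log2 fold change of 0.16. MRTFB, an actin-regulated coactivator of SRF, rose from 69.8 ± 12.4 to 96.8 ± 3.93 CPM, and ELK3, a ternary complex factor, from 10.9 ± 1.12 to 14.2 ± 1.12 CPM. MRTFB lost the call with the covariate (log2 fold change 0.03), and ELK3 lost it there and without shCtrl replicate 3, shSATB1 replicate 1 or shSATB1 replicate 3 (adjusted p = 0.0847, 0.0633 and 0.0603 by edgeR).

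Of 14 genes of the RAS and ERK route, 7 rose and 3 fell, with a median of 0.15. These are 50% and 21.4%, against 14.3% and 16.6% of all tested genes. Above 20 CPM, where all of them but HRAS lie by their mean, the shares were 17.8% and 27.7%. The RAS GTPase gene NRAS rose from 83.4 ± 4.10 to 154.4 ± 6.14 CPM, and the kinase gene BRAF from 42.9 ± 4.50 to 61.7 ± 2.52 CPM. HRAS fell from 22.4 ± 2.03 to 14.4 ± 0.949 CPM. The other falls, named after their values were seen, were the ERK1 gene MAPK3 and the MSK1 kinase gene RPS6KA5, with log2 fold changes of -0.18 and -0.35. NRAS passed under every setting run, whereas HRAS and BRAF lost the call with the covariate (edgeR adjusted p = 0.0765 and 0.119). MAPK3 lost it there as well (log2 fold change -0.10, adjusted p = 0.514), with no filter (adjusted p = 0.0507), and without shCtrl replicate 3 or any shSATB1 replicate (edgeR adjusted p between 0.0688 and 0.186), and RPS6KA5 without shCtrl replicate 3 or shSATB1 replicate 1 (adjusted p = 0.0620 and 0.0517). With the length and GC offsets the RPS6KA5 log2 fold change was -0.64.

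Of 13 tested genes of the calcium route, 3 rose and 2 fell, with a median of 0.07. These are 23.1% and 15.4%, against 14.3% and 16.6% of all tested genes. Above 20 CPM, where all of them but PPP3CA lie by their mean, the shares were 17.8% and 27.7%. PPP3CA, a catalytic subunit of calcineurin, fell from 16.3 ± 1.44 to 6.97 ± 0.204 CPM, and PPP3R1, its regulatory subunit, from 37.9 ± 2.42 to 27.6 ± 1.20 CPM. The catalytic subunit gene PPP3CB, at 58.2 ± 3.97 and 61.2 ± 2.86 CPM, did not pass (edgeR adjusted p = 0.452). MEF2A rose from 73.6 ± 3.82 to 86.9 ± 5.56 CPM and HDAC7, which holds MEF2 targets silent in thymocytes, from 166.0 ± 6.18 to 195.8 ± 12.3 CPM. NFATC1, named after its values were seen, had a log2 fold change of 0.20. The PPP3CA fall passed under every setting, and PPP3R1 lost the call with the covariate (edgeR adjusted p = 0.0879). The rises were less firm: MEF2A, HDAC7 and NFATC1 each lost the call with the covariate and without shCtrl replicate 3 (edgeR adjusted p = 0.0662, 0.0556 and 0.164 without it). They also lost it without shSATB1 replicates 1 or 3 for MEF2A (adjusted p = 0.0568 and 0.0929), 2 for HDAC7 (adjusted p = 0.0567), and 2 or 3 for NFATC1 (adjusted p = 0.0742 and 0.114). NFATC1 further lost it with no filter (adjusted p = 0.0849) and with the length and GC offsets (log2 fold change 0.13, adjusted p = 0.139).

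Of 4 tested partners of NR4A and NAB proteins, 1 rose (25%, against 14.3% of all tested genes and 17.8% of those above 20 CPM). This was the remodeller gene CHD3, which rose from 618.9 ± 55.7 to 820.3 ± 22.3 CPM. Its log2 fold change went from 0.41 to 0.20 with the covariate, at an adjusted p of 0.0488 (edgeR). RXRB, a nuclear receptor partner gene, stood at 34.6 ± 1.67 and 32.9 ± 1.49 CPM and did not pass (edgeR adjusted p = 0.473). The remodeller gene CHD4, named after its values were seen, went from 23.5 ± 3.20 to 19.7 ± 0.475 CPM. Its shSATB1 libraries were all below its shCtrl libraries, but it did not pass (edgeR adjusted p = 0.0583).

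Genes linked to these factors downstream in T cells gave rises and no falls among those that passed. The rises were 37.5% of the tested EGR list and 33.3% of the tested NR4A list. Over all tested genes 14.3% rose and 16.6% fell, and the difference was not tested. Listed genes that did not pass lay on both sides of 0. Named after their values were seen, they went from a log2 fold change of -0.46 for ENTPD1 to 0.73 for PDCD1. Of 8 tested genes linked to EGR factors, 3 rose, with a median log2 fold change of 0.08. The ubiquitin ligase gene CBLB, a brake on T cell activation, rose from 25.5 ± 1.91 to 38.9 ± 1.35 CPM. ID3, an inhibitor of E proteins, rose from 36.4 ± 2.89 to 54.4 ± 5.54 CPM, and the ubiquitin ligase gene ITCH from 106.7 ± 7.97 to 134.2 ± 5.61 CPM. Of 9 tested genes linked to NR4A factors, 3 rose, with a median of 0.20. TOX2 rose from 6.13 ± 0.494 to 12.8 ± 1.97 CPM, IKZF2, the Helios gene, from 319.9 ± 58.3 to 566.7 ± 49.0 CPM, and TOX from 164.2 ± 5.74 to 189.3 ± 3.30 CPM. CBLB, ID3, TOX2 and IKZF2 passed under every setting run, but with the covariate the log2 fold change went from 0.83 to 0.31 for IKZF2 and from 0.61 to 0.40 for CBLB. ITCH lost the call with the covariate (edgeR adjusted p = 0.388), and TOX without shCtrl replicate 3, shSATB1 replicate 1 or shSATB1 replicate 3 (edgeR adjusted p = 0.118, 0.0604 and 0.0726).

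Among 10 other immediate early genes 4 rose and none fell, with a median log2 fold change of 0.22. The rises are 40% of this list, where 14.3% of all tested genes rose and 16.6% fell. The AP-1 gene FOS stood at 0.827 ± 0.223 and 1.72 ± 0.421 CPM, a log2 fold change of 1.05 (1.74 with the covariate), and lost the call without shSATB1 replicate 2 (edgeR adjusted p = 0.0725). The activation marker gene CD69 rose from 16.7 ± 1.08 to 26.4 ± 1.23 CPM, the survival gene MCL1 from 155.8 ± 2.66 to 208.0 ± 3.73 CPM, and the antiproliferative gene BTG2 with a log2 fold change of 0.45. JUNB, IER2 and ZFP36, at log2 fold changes of -0.03, -0.02 and 0.08, were chosen after their values were seen as members that did not pass.

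Of 12 tested cytoskeletal SRF targets, 4 rose and 3 fell, with a median of 0.06. These are 33.3% and 25%, against 14.3% and 16.6% of all tested genes. Above 20 CPM, where all 12 lie by their mean, 17.8% rose and 27.7% fell, so the share of falls was not above that of genes of like level. The focal adhesion gene VCL rose from 32.3 ± 2.72 to 46.7 ± 0.528 CPM, the tropomyosin gene TPM4 from 659.7 ± 58.1 to 872.5 ± 23.1 CPM and the filamin gene FLNA from 1186 ± 148.0 to 1512 ± 59.8 CPM, whereas the cofilin gene CFL1 fell from 484.2 ± 49.1 to 366.4 ± 25.5 CPM. Named after their values were seen, MYH9 had a log2 fold change of 0.24, TAGLN2 of -0.32 and ACTB of -0.20. VCL and TPM4 passed under every setting. FLNA, CFL1, TAGLN2 and MYH9 lost the call with the covariate (edgeR adjusted p = 0.523, 0.417, 0.837 and 0.465), and ACTB changed sign there, to 0.0032. MYH9 also lost it without shCtrl replicate 3, shSATB1 replicate 2 or shSATB1 replicate 3 (adjusted p = 0.0597, 0.0504 and 0.0630), and ACTB lost it with upper quartile scaling (adjusted p = 0.0512), a minimum of 1 CPM (0.0579), the length and GC offsets (0.0803) and without shCtrl replicate 3, shSATB1 replicate 1 or shSATB1 replicate 3 (adjusted p = 0.163, 0.213 and 0.196).

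**Figure D5:**
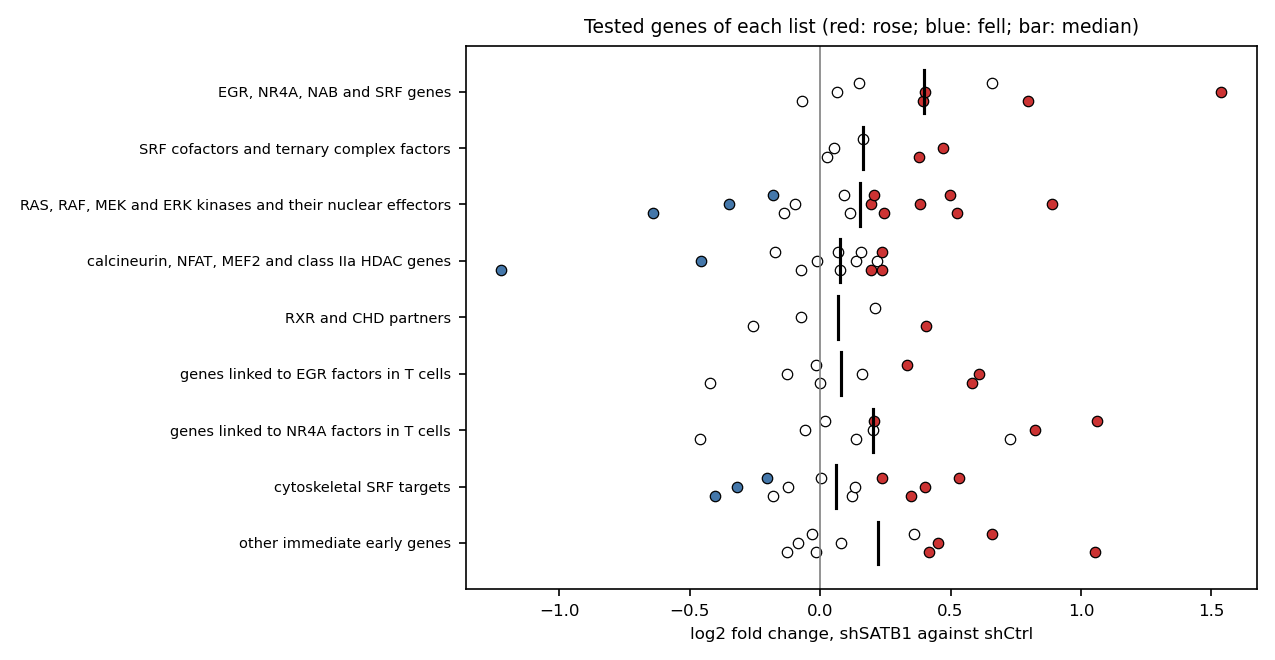
Log2 fold change of every tested gene of the 10 genes described and of the lists upstream and downstream of them, shSATB1 against shCtrl (red: rose; blue: fell; white: did not pass; bar: median). Of the lists drawn, which leave out the cell type markers, falls appear in the RAS and ERK, calcium and cytoskeletal lists, and none among the EGR, NR4A, NAB and SRF genes.

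The nearest tested genes beside the risen members did not rise, where 14.3% of all tested genes rose and 16.6% fell. They are few, and their calls were not tested against these shares. REEP2, 18.5 kb from EGR1, fell from 40.2 ± 3.81 to 32.1 ± 0.177 CPM, and ETF1 on its other side did not pass (edgeR adjusted p = 0.144). ADO, 3.51 kb from EGR2, fell from 51.1 ± 4.14 to 43.8 ± 2.62 CPM, and NRBF2 did not pass (adjusted p = 0.930). GRASP, 6.94 kb from NR4A1, fell from 13.4 ± 0.145 to 10.5 ± 1.42 CPM, and ATG101 did not pass (adjusted p = 0.194). Beside EGR3, BIN3 and AC107959.1 did not pass (adjusted p = 0.374 and 0.779). The neighbours were not tested under other settings.

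The genes whose profile over the 6 libraries was most like that of EGR1 or NR4A1 were found by the root mean square distance of log2 CPM, each gene centred on its own mean, among 12826 other genes of at least 2 CPM. They are a description, since any gene with a rise of this size and little scatter comes close. For EGR1 they were TMEM63B, CLCN2, CCNG2, RGS3 and SNX16, at distances of 0.0371 to 0.0487. For NR4A1 they were RNF166, CROT, PPP1R9B, RECK and VGLL4, at distances of 0.0182 to 0.0333. All 10 had a log2 fold change between 0.34 and 0.45.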

How the data were processed

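Per the submitters' processing notes, the authors used Trim Galore, STAR and HTSeq with the build hg38; their versions, the annotation release and the strand setting are not given in these sources. The deposited values are raw read counts per Ensembl gene, 1 table per library, neither normalized nor pooled. Summary lines without a gene were left out of every fit, and among them reads outside annotated exons held 7.77% to 11.7% of a library and ambiguous reads 8.99% to 10.1%. All 58735 identifiers matched GENCODE 29, which gave symbols, coordinates and exon lengths, and 2 list symbols were matched through RefSeq synonyms. Groups were compared in edgeR 4.0.16 under R 4.3.3 after TMM scaling and filterByExpr (minimum count 10), by quasi-likelihood, and p-values were adjusted after Benjamini-Hochberg over 17520 genes with a threshold of 0.05. Standard errors are the fitted log2 fold change over the root of F. The fit was tested on simulated data. Other settings, described in the closing section, used DESeq2 1.42.0 and limma 3.58.1. Members and lists were chosen with earlier results of these data known. All 10 members were to be named, with up to 4 called genes of largest change per list, or else, with fewer than 2 called, the 2 most abundant. Promoter motifs were searched in RefSeq windows of GRCh38.p14. A floor of 3 reads equals 0.103 to 0.111 CPM and covers counting error only. Some genes of the lists are counted but not reported by name here.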

Additional observations from a re-analysis of the deposited data

Results flagged for a closer look

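The share of reads outside annotated exons is not part of the gene counts and was above the control level in every shSATB1 library, at 11.4% ± 0.436 (SD, n = 3) against 9.10% ± 1.23 in shCtrl. Single libraries stood at 10.2%, 7.77% and 9.36% in shCtrl and at 11.7%, 10.9% and 11.6% in shSATB1. Its part in the rises of EGR1, EGR2, EGR3 and NR4A1 cannot be told apart from the group.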

How the results depend on the processing

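The alternatives were DESeq2 size factors, upper quartile scaling, no filter, a minimum of 1 CPM in 3 libraries (where EGR2 was not tested), the DESeq2 and limma-voom tests, a replicate block, each library left out, the share of reads outside annotated exons as a covariate, and offsets for gene length and GC content. No member changed direction under any of them, and the count of falling members was 0 throughout. Of 119 fits of the 8 tested members, 105 kept their side of the threshold and 14 lost a call. The count of rising members was 0 with the covariate and 1 to 4 with a library left out (2 without shCtrl replicate 3, 2 without shSATB1 replicate 1, 1 without shSATB1 replicate 2). Among all genes, 858 rose and 1262 fell with the covariate, and 1650 to 3218 rose and 1817 to 3562 fell with a library left out. Of 36 other named genes, ACTB was the 1 that reversed, to 0.0032 with the covariate. The cause of these changes was not tested. SATB1 passed throughout, at log2 fold changes of -1.55 to -1.35. Same-numbered libraries did not deviate together (correlations of 0.0798, 0.0712 and 0.0032), and numbers 1 and 2, but not 3, correlated best with their own number. With the replicate block 4 members rose, 2783 genes rose and 3120 fell, and no named call changed. Depth limits EGR4 and NR4A2, with 33 and 21 reads over all libraries.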

Other observations

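Genes grouped by the letters of their promoter windows gave the following counts, with no test. Of 165 tested genes with a CArG box, 23.0% rose and 20.6% fell, against 16.02% and 20.3% of 10732 without it, and the median log2 fold changes were 0.04 and -0.01. Of 2046 tested genes with an EGR site, 17.7% rose and 20.8% fell, against 15.8% and 20.2% of 8851 without it, with medians of 0.00 and -0.01. For the CRE core the rises were fewer: of 4325 tested genes with it, 15.7% rose and 21.7% fell, against 16.4% and 19.5% of 6572 without it, with medians of -0.02 and 0.00. Among the cytoskeletal SRF targets, 4 of 11 with a window held a CArG box (ACTG1, FLNA, TPM4 and FHL2), and among the other immediate early genes 0 of 7 did within this window.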
